A study of Mus musculus with 8 samples.

Results

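The CDK inhibitor genes were followed in muscle stem cells (MuSCs) of aged mice cultured with nicotinamide and pyridoxine (NAM/PN) or with vehicle. The members were chosen by name, with earlier results of these data known. They comprise Cdkn1a, Cdkn1b and Cdkn1c of the Cip/Kip family, Cdkn2a, Cdkn2b, Cdkn2c and Cdkn2d of the INK4 family, and Cdkn3. All 8 were found among the 55487 genes of the count table, and all 8 were among the 12060 genes that passed the filter on low counts.

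Both conditions used cells from wild-type C57BL/6JRj male mice that the labels call old. Cells of 8 mice were sorted by FACS as negative for CD31, CD11b, CD45 and Sca1 and positive for CD34 and integrin α7, and were combined into 4 pools of 2 mice. Each pool was grown for 3 days in growth medium either with the NAM/PN combination at 1 mM, for which no separate concentrations were given, or with 1% DMSO as vehicle, so that each condition had 4 libraries and the replicate number names the pool. A library therefore averages 2 mice, no library of young cells was analysed here, and the labels do not say whether NAM/PN wells also received DMSO. The pairing and the total of 8 mice rest on the pool numbers in the labels. Between libraries of the same pool number, deviations from the condition means had correlations of only -0.033 to 0.031.

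CDK inhibitors hold cells in or before the G1 phase and are best known in muscle for the cell cycle exit that precedes differentiation and for senescence. Cip/Kip proteins bind cyclin-CDK complexes, above all those of CDK2, and also help to assemble cyclin D complexes, whereas INK4 proteins bind CDK4 and CDK6 alone and keep them from cyclin D. Both routes act on phosphorylation of the retinoblastoma protein, which restrains E2F factors. Cdkn3 encodes a phosphatase that removes the activating phosphate from CDK2 and CDK1.

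Positions in GENCODE M21 on GRCm38 place Cdkn1a (ENSMUSG00000023067) at chr17:29090976-29100727 and Cdkn1b (ENSMUSG00000003031) at chr6:134920401-134925513 on the plus strand, and Cdkn1c (ENSMUSG00000037664) at chr7:143458339-143461050 on the minus strand. Cdkn2a (ENSMUSG00000044303, chr4:89274471-89294653), Cdkn2b (ENSMUSG00000073802, chr4:89306299-89311039) and Cdkn2c (ENSMUSG00000028551, chr4:109660876-109667189) lie on the minus strand of the same chromosome. Cdkn2d (ENSMUSG00000096472) lies at chr9:21288410-21291407 on the minus strand and Cdkn3 (ENSMUSG00000037628) at chr14:46760541-46771669 on the plus strand. Cdkn1a and Cdkn1c each overlap 1 other annotated gene, with 0 counts in these libraries and outside the last 500 bases of the member.

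The start regions of the 2 most abundant members and of the neighbour of Cdkn2a are shown because Cdkn1a and Cdkn2a moved in opposite directions while Cdkn2a and Cdkn2b, which lie next to each other on chromosome 4, varied together over the libraries. RefSeq start regions (GRCm38.p6) were held for 7 of the 8 members, at 10 starts in all, and not for Cdkn1c. The 250 bases before each start are given 5′ to 3′. Capitals mark matches to the E box (CANNTG), the GC box (GGGCGG, either strand) and a pair of p53 decamers. The decamer is the repeated unit of a p53 response element. It was searched as its degenerate consensus, which reads the same on both strands, with at most 1 mismatch in the pair and up to 13 bases between the units.
Cdkn1a, distal start, chr17:29090729-29090978, plus strand: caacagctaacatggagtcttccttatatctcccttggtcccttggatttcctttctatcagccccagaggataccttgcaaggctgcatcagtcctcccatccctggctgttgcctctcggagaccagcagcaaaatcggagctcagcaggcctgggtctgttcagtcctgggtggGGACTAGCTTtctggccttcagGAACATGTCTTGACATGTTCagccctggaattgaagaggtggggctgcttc
Cdkn1a, proximal start, chr17:29093519-29093768, plus strand: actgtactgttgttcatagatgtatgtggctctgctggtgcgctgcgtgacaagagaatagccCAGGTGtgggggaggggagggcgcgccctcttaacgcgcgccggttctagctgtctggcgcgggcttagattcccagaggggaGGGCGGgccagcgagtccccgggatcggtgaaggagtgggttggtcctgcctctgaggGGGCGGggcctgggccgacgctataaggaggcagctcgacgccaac
Cdkn2a, p16Ink4a start, chr4:89282193-89282442, minus strand: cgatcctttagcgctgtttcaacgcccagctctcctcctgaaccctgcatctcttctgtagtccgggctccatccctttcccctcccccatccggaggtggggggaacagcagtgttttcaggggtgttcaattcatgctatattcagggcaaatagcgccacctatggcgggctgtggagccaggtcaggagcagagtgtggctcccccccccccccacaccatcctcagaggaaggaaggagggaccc
Cdkn2b, chr4:89311033-89311282, minus strand: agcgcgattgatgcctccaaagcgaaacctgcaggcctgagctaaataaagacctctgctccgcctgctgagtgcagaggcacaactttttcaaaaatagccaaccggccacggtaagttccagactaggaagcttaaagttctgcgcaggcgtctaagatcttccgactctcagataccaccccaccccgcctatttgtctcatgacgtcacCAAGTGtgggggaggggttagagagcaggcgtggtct

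The capitals of the distal Cdkn1a start mark 2 p53 pairs that share a decamer. One pair had 0 mismatches and 12 bases between its units and ended 42 bases before the start, and the other had 1 mismatch and 0 bases between them and ended 32 bases before it. A p53 pair was found at 1 of the 10 starts of the members and at 0.898% of all 32851 start regions of the same length. In the proximal Cdkn1a start the capitals mark 1 E box followed by 2 GC boxes, in Cdkn2b they mark 1 E box, and the p16Ink4a start held no match. The Arf start of Cdkn2a, which is not printed, held 2 GC boxes and had a GC content of 78.4%, against 60.0% at the p16Ink4a start, 53.6% at Cdkn2b and a median of 52.4% over all start regions. E boxes were found at 3 of the 10 starts of the members and at 66.2% of all start regions, and GC boxes at 6 of the 10 and at 32.7% of all. These matches describe the letters only, and binding at them was not measured.

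RNA was counted from the 3′ end of transcripts, so levels are given as CPM, the count of a gene scaled to the normalized size of its library, and were not divided by transcript length. Library totals lay between 6472484 and 10163101 counts, and 3 counts, taken as the floor of detection, were worth between 0.280 and 0.457 CPM of the normalized library size. Nuclear and mitochondrial rRNA genes took between 5.97% of the counts in NAM/PN replicate 4 and 21.1% in vehicle replicate 3. The mitochondrial share of counts was 6.01% in the vehicle and 4.31% in the NAM/PN libraries at the median, and was lowest in NAM/PN replicate 4 (2.56%). Vehicle replicate 3 and NAM/PN replicate 4 stood apart from the other libraries of their condition, with a chi-square per degree of freedom over genes of 70.9 to 91.2 and 71.5 to 84.4 against 22.6 to 29.7 for the other pairs. MuSC and myoblast markers summed to 2909 to 3373 CPM in vehicle and 2335 to 2929 CPM in NAM/PN libraries. Of the 8 tested, 7 had a negative log2 fold change and 0 were called by edgeR (1 had an unadjusted p under 0.05, and DESeq2 called 0 and voom 1). Pax7 was at 195.7 ± 36.2 CPM in vehicle and 173 ± 50.3 CPM in NAM/PN libraries (SD, n = 4), Des (-0.41) and Cdh15 (-0.42) were lower in all 4 pools without a call, and Calcr and Chodl, which did not pass the filter, were at 0 in every NAM/PN library and at or under 1.31 and 2.72 CPM in the vehicle libraries, of which 3 were at 0 for Calcr and 1 for Chodl. Differences were tested with edgeR's quasi-likelihood test, adjusted over all 12060 tested genes by Benjamini-Hochberg, and a gene was called at an adjusted p under 0.05. Nothing in the labels says that pools were cultured or sequenced separately, so p-values measure the spread between these libraries.

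Of the 8 CDK inhibitor genes, 3 were called. Cdkn1a and Cdkn1c were lower with NAM/PN and Cdkn2a was higher, and the other 5 did not pass the test. Over all tested genes, 154 were called (1.28%), of which 34 were higher (0.282%) and 120 lower (0.995%). In CPM, 5 of the 8 members did not overlap between the conditions, namely Cdkn1a, Cdkn1c, Cdkn2a, Cdkn2b and Cdkn3, against 870 of all tested genes (7.21%). As the members were chosen with earlier results of these data known, these shares are descriptions only. NAM/PN replicate 4 held the lowest Cdkn1a, Cdkn1c and Cdkn3 and the highest Cdkn2a and Cdkn2b of all libraries. Without it the log2 fold change was -1.30 for Cdkn1a (edgeR adjusted p 0.000112), -1.89 for Cdkn1c (0.0585, not called) and 0.76 for Cdkn2a (0.0419), and without vehicle replicate 3 it was -1.42 (3.7e-05), -2.28 (0.0180) and 0.86 (0.0410). Of the 8 omissions of a single library, those of vehicle replicate 1, vehicle replicate 4, NAM/PN replicate 1 and NAM/PN replicate 2 left 1 called member, Cdkn1a, and with the pool as a block 2 were called, Cdkn1a and Cdkn2a. In bulk RNA, fewer cells of a type and less RNA per cell cannot be told apart, and this holds for every difference below.

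Differentiation markers were lower with NAM/PN, as were Cdkn1a and Cdkn1c, while Cdkn2a was higher. Of 14 markers of differentiating myocytes, all tested, 10 were called and lower with NAM/PN, the median of their log2 fold changes was -2.37, and their summed level was 2037 to 3954 CPM in vehicle and 475 to 1253 CPM in NAM/PN libraries. Myog, myogenin, was at 929 ± 390 and 199 ± 74.3 CPM (SD, n = 4). The part of these markers in the changes of Cdkn1a, Cdkn1c and Cdkn2a was not tested.

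**Figure D1:**
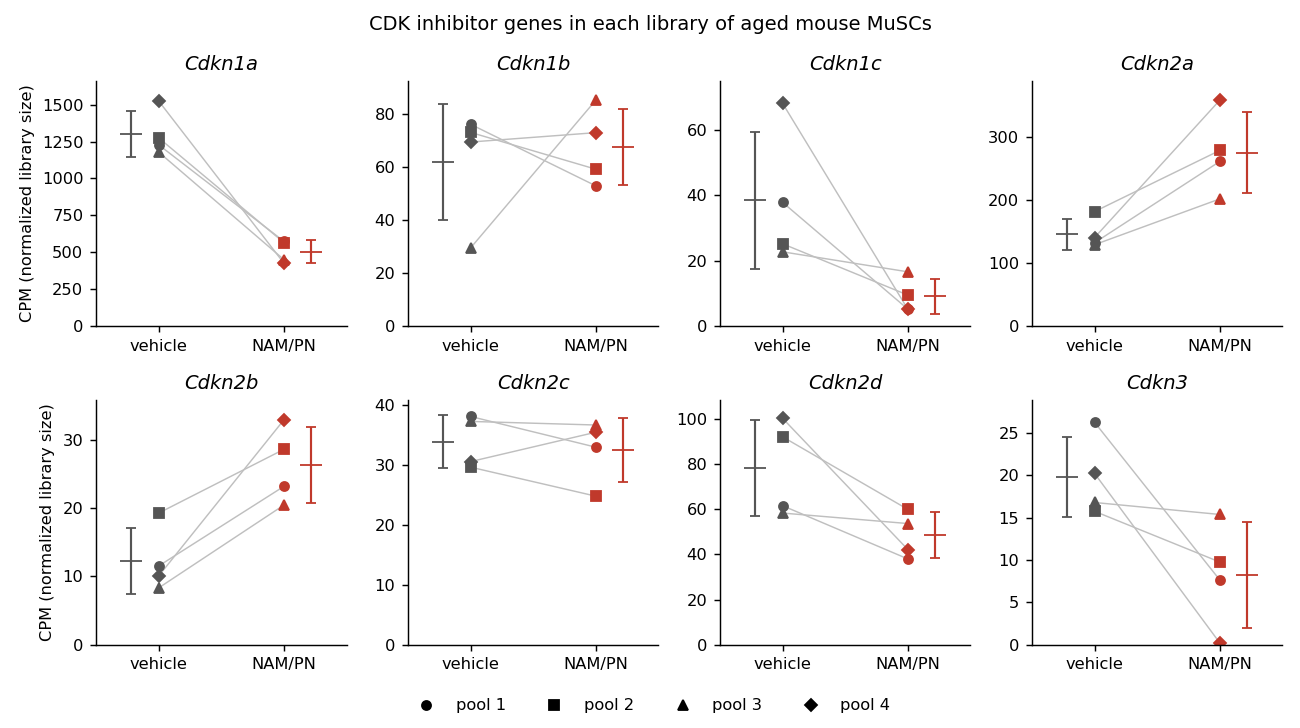
Level of each CDK inhibitor gene in each library (y axis: CPM of the normalized library size, from 0; x axis: condition). Each symbol is a pool, grey lines join the libraries of a pool, and bars at the sides give the mean ± SD of 4 libraries. Cdkn1a, Cdkn1c and Cdkn3 lie lower and Cdkn2a and Cdkn2b higher in every NAM/PN library than in any vehicle library.

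Among the Cip/Kip genes, Cdkn1a, which encodes p21, was the most abundant inhibitor in every library and fell with NAM/PN. With vehicle it measured 1229, 1276, 1179 and 1526 CPM in replicates 1 to 4, and with NAM/PN 574, 566, 450.3 and 426 CPM. The lowest vehicle library, replicate 3, stood well above the highest NAM/PN library, replicate 1, and the conditions did not overlap. The mean level went from 1302 ± 154 to 504 ± 76.7 CPM (SD, n = 4), a log2 fold change of -1.37 ± 0.16 (SE, 95% interval -1.70 to -1.04) with an edgeR adjusted p of 9.4e-05, the sixth smallest p-value of all tested genes. Within pools the log2 ratio of NAM/PN to vehicle was -1.10, -1.17, -1.39 and -1.84 in pools 1 to 4. The call held under all 21 alternative settings, with log2 fold changes from -1.47 to -1.21 and adjusted p up to 0.00935.

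Cdkn1c, which encodes p57 and lies in an imprinted domain on chromosome 7, was a minor member and showed the largest fitted fold change of the 8. It measured 37.9, 25.2, 22.7 and 68.2 CPM with vehicle, resting on 184 to 627 counts, and 5.17, 9.47, 16.6 and 5.14 CPM with NAM/PN, resting on 42 to 109 counts. All NAM/PN libraries were under all vehicle libraries, but vehicle replicate 4 was far above the other vehicle libraries and pool 3 differed least between conditions, with a log2 ratio of -0.45 against -2.82, -1.39 and -3.67 in pools 1, 2 and 4. The log2 fold change was -2.09 ± 0.46 (SE, 95% interval -3.06 to -1.12), with an edgeR adjusted p of 0.0248 without and 0.0586 with the pool as a block. The call was lost when vehicle replicate 1 (-2.10, adjusted p 0.0691), vehicle replicate 4 (-1.66, 0.243), NAM/PN replicate 1 (-1.90, 0.102), NAM/PN replicate 2 (-2.11, 0.0697) or NAM/PN replicate 4 (-1.89, 0.0585) was left out, and also without pool 1 (-1.91, 0.221), pool 2 (-2.27, 0.138) or pool 4 (-1.46, 0.323). Without pool 3 it was -2.74 with an adjusted p of 0.00915.

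Cdkn1b, which encodes p27, showed no direction shared by the pools. Its levels were 76.0, 73.0, 29.4 and 69.3 CPM in the vehicle and 52.8, 59.1, 85.1 and 72.9 CPM in the NAM/PN libraries. Pools 1 and 2 were lower and pools 3 and 4 higher with NAM/PN, and vehicle replicate 3, the library with the highest rRNA share, stood well under the other vehicle libraries. The log2 fold change was 0.12 ± 0.28 (SE), with an edgeR adjusted p of 0.970 and a 95% interval from -0.46 to 0.70, which holds changes of either sign. Without vehicle replicate 3 the log2 fold change was -0.11.

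**Figure D2:**
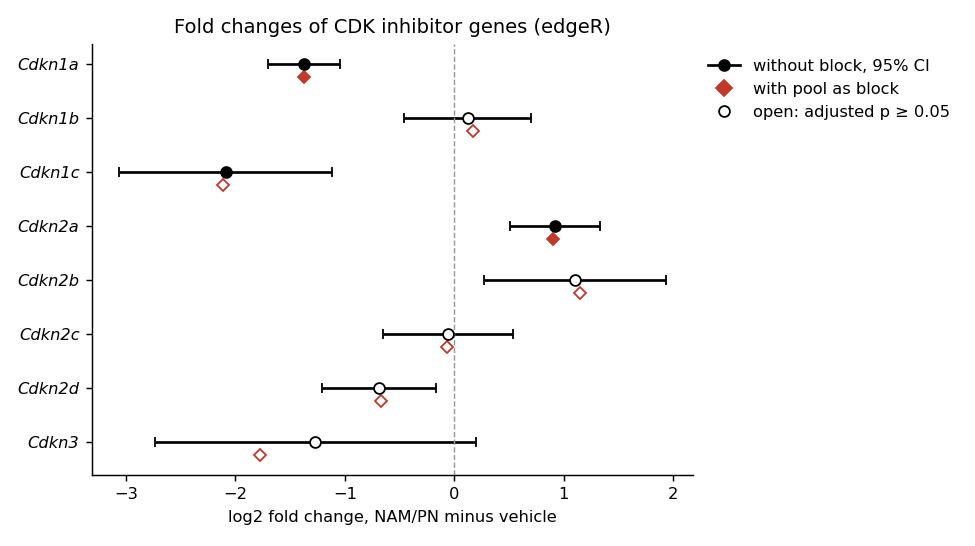
Log2 fold change of each CDK inhibitor gene (x axis, NAM/PN minus vehicle, no change at the dashed line). Black circles give the fit without a block with its 95% interval, red diamonds the fit with the pool as a block, and open symbols an adjusted p of 0.05 or above. Cdkn1c is called without the block (adjusted p 0.0248) and not with it (0.0586).

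Among the INK4 genes, Cdkn2a was the most abundant and rose. Its levels were 132, 182, 129 and 141 CPM in the vehicle and 262, 279, 202 and 359 CPM in the NAM/PN libraries. The conditions did not overlap, and the gap between the highest vehicle library and the lowest NAM/PN library was narrow. The mean went from 146 ± 24.4 to 276 ± 64.8 CPM (SD, n = 4), a 1.89-fold rise with a log2 fold change of 0.92 ± 0.20 (SE, 95% interval 0.51 to 1.33) and an edgeR adjusted p of 0.0187. Within pools the log2 ratio was 0.98, 0.62, 0.64 and 1.35. The direction held in every alternative, but the call was lost without vehicle replicate 1 (0.87, adjusted p 0.0768), vehicle replicate 4 (0.89, 0.0931), NAM/PN replicate 1 (0.94, 0.0567) or NAM/PN replicate 2 (0.91, 0.0599), and without pool 1 (0.89, 0.190), pool 2 (1.03, 0.102) or pool 4 (0.74, 0.157).

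Cdkn2a encodes 2 unrelated proteins from different first exons, the CDK4 and CDK6 inhibitor p16Ink4a and p19Arf, which holds MDM2 away from p53. In GENCODE M21 (GRCm38) the first exon of the p16Ink4a transcript spans positions 89281986 to 89282192 of chromosome 4 and that of the Arf transcript positions 89294334 to 89294653, with starts 12461 bases apart. Exon 2, at positions 89276645 to 89276985, is common to both, their last exons end 70 bases apart, and 575 exonic bases are shared. Counts from the 3′ end cannot tell p16Ink4a from Arf, so the rise is that of their summed counts. The part of each transcript in it is not known.

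Cdkn2b, which encodes p15 and starts upstream of the Arf exon on the same strand, had the lowest mean level with vehicle, in a range that overlapped with that of Cdkn3. Its levels were 11.5, 19.2, 8.27 and 10.01 CPM in the vehicle and 23.1, 28.6, 20.4 and 32.9 CPM in the NAM/PN libraries. Every NAM/PN library lay above every vehicle library, the nearest pair being vehicle replicate 2 and NAM/PN replicate 3. The log2 fold change of 1.10 ± 0.40 (SE, 95% interval 0.27 to 1.93) did not pass the test, with an edgeR adjusted p of 0.286. Over the 21 alternatives the adjusted p went from 0.167 with DESeq2 to 0.665 with edgeR and libraries left out. Over the 8 libraries the log2 levels of Cdkn2a and Cdkn2b had a Pearson r of 0.96, and after removal of the condition means 0.85, given as a description of libraries that share pools and depth. In the same measure Cdkn1a and Cdkn2a had r of -0.85 over the libraries and -0.05 after removal of the condition means.

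Cdkn2c and Cdkn2d, which encode p18 and p19Ink4d, did not pass the test. Cdkn2c measured 38.1, 29.7, 37.3 and 30.6 CPM in the vehicle and 33.0, 24.8, 36.7 and 35.5 CPM in the NAM/PN libraries, and these ranges nearly coincide. Its log2 fold change was -0.061 ± 0.28 (SE, 95% interval -0.65 to 0.53, edgeR adjusted p 0.987). Cdkn2d measured 61.7, 92.3, 58.4 and 101 CPM in the vehicle and 38.0, 60.1, 53.8 and 42.2 CPM in the NAM/PN libraries. It was lower with NAM/PN in all 4 pools but the conditions overlapped, through NAM/PN replicate 2 and vehicle replicate 3. Its log2 fold change was -0.69 ± 0.25 (SE, 95% interval -1.21 to -0.17), with an edgeR p of 0.0118 before and 0.281 after adjustment.

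Cdkn3 measured 26.3, 15.8, 16.8 and 20.2 CPM in the vehicle and 7.63, 9.75, 15.4 and 0.187 CPM in the NAM/PN libraries. The last value rests on 2 counts, under the floor of 3, while the other NAM/PN libraries held 62 to 101 counts and the vehicle libraries 127 to 222. The conditions did not overlap, by a narrow margin between NAM/PN replicate 3 and vehicle replicate 2. The log2 fold change of -1.27 ± 0.70 (SE, 95% interval -2.74 to 0.20) did not pass the test (edgeR adjusted p 0.655), and it was -0.86 without NAM/PN replicate 4.

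For single genes, a two-sided exact permutation test of log2 CPM over the 70 assignments of 4 and 4 libraries gave p = 0.0286, the smallest it can give, for the 5 members without overlap, a value that follows from the lack of overlap. With signs changed within pools, which keeps the pairing, the exact permutation p was 0.125 for the same 5 and for Cdkn2d. This is the smallest that 4 pools allow, and it follows from a shared sign in all 4 pools. In the unpaired test the exact permutation p was 0.0571 for Cdkn2d, 0.743 for Cdkn2c and 0.800 for Cdkn1b. With NAM/PN, 2 members were higher and 4 lower in all 4 pools, where 8.56% of all tested genes were higher and 10.98% lower in all 4.

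The order of the levels was led by Cdkn1a and then Cdkn2a in both conditions, each apart from its neighbour in every library. With vehicle, Cdkn2d, Cdkn1b, Cdkn1c and Cdkn2c followed with ranges that overlapped from each to the next, and Cdkn3 and Cdkn2b came last with overlapping ranges. With NAM/PN, Cdkn1b and Cdkn2d overlapped, then Cdkn2c and Cdkn2b overlapped, and Cdkn1c and Cdkn3 came last. The ratio of Cdkn1a to Cdkn2a CPM was 9.28, 7.01, 9.12 and 10.9 with vehicle and 2.19, 2.02, 2.23 and 1.19 with NAM/PN, so that both genes came closest in NAM/PN replicate 4. These are ratios of counts at 3′ ends and not of proteins.

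Summed over a family, Cip/Kip genes went from 1231 to 1664 CPM with vehicle to 504 to 634 CPM with NAM/PN, without overlap. INK4 genes went from 233 to 323 CPM to 313 to 470 CPM and overlapped. The INK4 sums and shares hold all Cdkn2a counts, including any from Arf, which is not an INK4 protein. Cdkn1a made up 93.0 ± 1.96% of Cip/Kip counts with vehicle and 86.5 ± 4.25% with NAM/PN, while Cdkn1b went from 4.38 ± 1.48% to 11.9 ± 3.57% (SD, n = 4). The level of Cdkn1b itself was 61.9 ± 21.9 and 67.5 ± 14.4 CPM (SD, n = 4), without a call, while Cdkn1a, the largest part of the sum, fell. Its lowest vehicle share, 2.39%, was that of Cdkn1b in vehicle replicate 3. Cdkn2a made up 54.0 ± 2.84% of INK4 counts with vehicle and 71.4 ± 5.06% with NAM/PN, and Cdkn2d 28.7 ± 4.96% and 13.03 ± 3.83%.

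**Figure D3:**
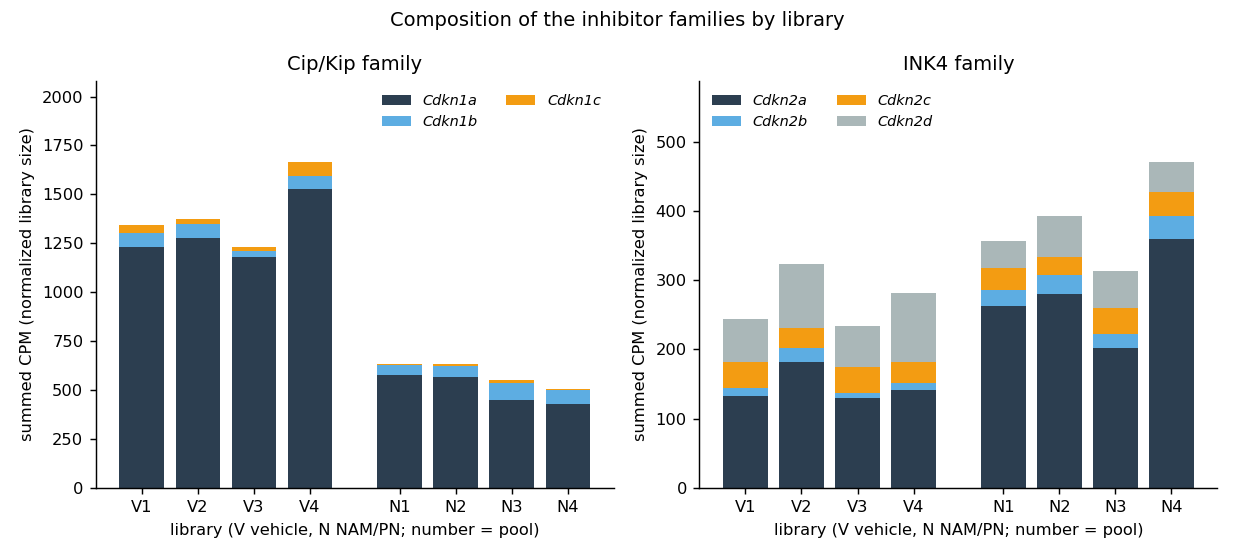
Summed level of the Cip/Kip genes (left) and INK4 genes (right) in each library (y axis: CPM of the normalized library size; x axis: V for vehicle and N for NAM/PN, with the pool number), stacked by gene. Cip/Kip sums are 1231 to 1664 CPM in vehicle and 504 to 634 CPM in NAM/PN libraries, and the INK4 sums are 233 to 323 CPM and 313 to 470 CPM, with Cdkn2a as the largest part in each library. Counts of Cdkn2a hold p16Ink4a and Arf together.

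Other genes of the pathway were taken from 7 lists. Like the members, the lists were chosen with earlier results of these data known, so their shares beside all tested genes are descriptions only. None of the lists on targets, RB and E2F, degradation, transcriptional regulation, G2 and mitosis or the imprinted domain held a called gene, and the list of p53 target genes held 2, both lower. Of the p53 target genes, DESeq2 called 4 and voom 2. The median log2 fold change of all tested genes was -0.0022, and 50.2% of them were negative. Among the 94 tested entries of the 6 lists without a call by edgeR, 11 had an unadjusted p under 0.05, where 1119 of all 12060 tested genes did, and DESeq2 and voom called 1 each.

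Of 19 tested cyclins, CDKs and their activators, the proteins on which the inhibitors act, 10 had a positive and 9 a negative log2 fold change, with a median of 0.08. The smallest p-value was that of Ccnd3, cyclin D3, at 393 ± 67.4 CPM in vehicle and 249.7 ± 48.6 CPM in NAM/PN libraries (SD, n = 4), a log2 fold change of -0.65 (edgeR adjusted p 0.0940). It was called without vehicle replicate 3 (-0.75, adjusted p 0.0386) or NAM/PN replicate 4 (-0.79, 0.0200), and with DESeq2 (0.0134), voom (0.00211) and no filter (0.0213). Cdk4 and Cdk6, the kinases bound by INK4 proteins, were looked up after their values were seen and had log2 fold changes of 0.23 and 0.26 (edgeR adjusted p 0.834 and 0.777). Ccnd1, also looked up afterwards, measured 1818 ± 362 CPM in vehicle and 1790 ± 190 CPM in NAM/PN libraries (SD, n = 4).

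Of 13 RB and E2F genes, the median was -0.06, with Rb1, the retinoblastoma gene, having the smallest p-value. Rb1 did not pass the test at 48.5 ± 4.42 and 22.6 ± 13.2 CPM (SD, n = 4, log2 fold change -1.11, edgeR adjusted p 0.280), was lower in all 4 pools without overlap and was called without the filter on low counts (0.0368). In all 4 pools 3 of the 13 were higher (23.1%, against 8.56% of all tested genes) and 1 lower (7.69%, against 10.98%). Without overlap were 2 (15.4%, against 7.21%), Rb1 and Tfdp1, the latter higher at 0.55 (edgeR adjusted p 0.372). Of 14 genes for the degradation of Cip/Kip proteins, the median was 0.08, 4 were higher (28.6%, against 8.56% of all tested genes) and 0 lower (against 10.98%) in all 4 pools, and 0 were without overlap (against 7.21%). Dtl, a substrate receptor that directs p21 to degradation in S phase, was at 48.3 ± 13.1 and 72.9 ± 11.99 CPM (SD, n = 4, log2 fold change 0.60, edgeR adjusted p 0.405).

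Of 31 transcriptional regulators of the inhibitors, 27 were tested, with a median of 0.07. Klf4, a factor that can activate Cdkn1a, had the smallest p-value at 42.1 ± 18.7 and 15.9 ± 9.23 CPM (SD, n = 4, log2 fold change -1.41, edgeR adjusted p 0.144), with overlap between conditions and a call without the filter (0.0100). Regulators looked up after their values were seen included Trp53, which encodes p53, at -0.28 (edgeR adjusted p 0.812), and Bmi1 and Ezh2, Polycomb genes that repress the Cdkn2a locus, at 0.30 and 0.19 (0.788 and 0.859). Myod1, the myogenic factor that can raise Cdkn1a, was looked up in the same way and was at -0.19 (0.824).

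Of 22 p53 target genes other than Cdkn1a, 21 were tested and 19 of them had a negative log2 fold change (90.5%, against 50.2% of all tested genes), with a median of -0.53. In all 4 pools 10 of the 21 were lower (47.6%, against 10.98% of all tested genes), and 5 did not overlap between the conditions (23.8%, against 7.21%). Trp53inp1, a stress protein that promotes p53 activity, fell from 78.2 ± 13.2 to 26.2 ± 8.70 CPM (SD, n = 4, log2 fold change -1.58, edgeR adjusted p 0.00335) and kept its call under every alternative in which it was refitted, with adjusted p up to 0.0464. Plk2, a polo-like kinase, fell from 78.5 ± 17.5 to 32.9 ± 13.2 CPM (SD, n = 4, log2 fold change -1.26, edgeR adjusted p 0.0422). The call of Plk2 was lost without vehicle replicate 1 (-1.15, adjusted p 0.151), 2 (-1.17, 0.189) or 4 (-1.34, 0.0862), without NAM/PN replicate 1 (-1.23, 0.130), 3 (-1.36, 0.0645) or 4 (-1.02, 0.0530), and without pool 1 (-1.13, 0.325), 2 (-1.38, 0.176), 3 (-1.46, 0.0715) or 4 (-1.10, 0.0997). It was also lost without TMM factors (-1.22, 0.0564) and with thinned counts (-1.23, 0.0540). Mdm2 and Ccng1, looked up after their values were seen, did not overlap between the conditions but were not called, at -0.52 and -0.53 (edgeR adjusted p 0.156 and 0.147).

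Of 17 G2 and mitosis genes, the phase in which Cdkn3 is expressed, the median was 0.04 and 12 were positive. In all 4 pools 5 of the 17 were higher (29.4%, against 8.56% of all tested genes) and 0 lower, and 1, Birc5, did not overlap between the conditions (5.88%, against 7.21%). Birc5, survivin, was at 418 ± 54.8 and 565 ± 83.7 CPM (SD, n = 4, log2 fold change 0.43, edgeR adjusted p 0.322). Of 8 genes in the imprinted domain of Cdkn1c, 4 were tested, and the median was -0.05. Cd81 had the smallest p-value there (log2 fold change -0.45, edgeR adjusted p 0.380).

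**Figure D4:**
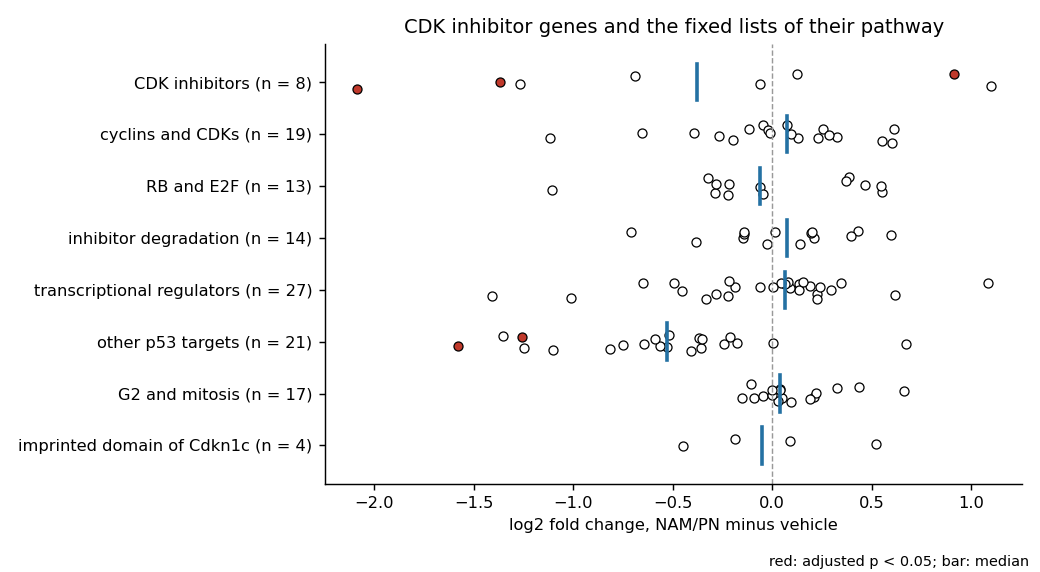
Log2 fold changes (x axis, NAM/PN minus vehicle) of the 8 CDK inhibitor genes and of the tested genes of 7 pathway lists (rows, with the number tested), where each point is a gene, red marks an adjusted p under 0.05 and bars are medians. The medians lie near 0 except for the inhibitors themselves and the other p53 target genes, at -0.53 for the latter.

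Among markers of other cells, Acta2 and Col3a1 were called and lower with NAM/PN in all 4 pools without overlap. Acta2, smooth muscle actin, was at 368 ± 125 CPM in vehicle and 70.5 ± 35.1 CPM in NAM/PN libraries (SD, n = 4, edgeR adjusted p 0.000147), and Col3a1, a collagen chain, at 155 ± 7.86 and 69.2 ± 12.7 CPM (SD, n = 4, edgeR adjusted p 0.00255). Mural and smooth muscle markers summed to 285 to 608 CPM in vehicle and 95.9 to 156 CPM in NAM/PN libraries, with 1 of 3 tested, Acta2, called lower and the defining marker Myh11 at 0 in every library. Fibro-adipogenic markers summed to 153 to 207 and 57.0 to 1123 CPM, with 1 of 2 tested called lower (Col3a1) and Pdgfra, Lum and Dpt at 0 in every library, and the upper end came from Col1a1, at 486 and 1032 CPM in NAM/PN replicates 1 and 2. Endothelial markers, of which 1 of 8 was tested, summed to at most 29.5 CPM and immune markers to at most 7.58 CPM with 6 of 7 at 0, and none of their tested genes was called. The part of Acta2, Col3a1 and Col1a1 in the changes of the inhibitors was not tested.

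Genes with a pattern most like a member were taken as the 3 tested genes with the highest Pearson r over the 8 libraries, out of 9211 whose average log2 CPM was 3 or more. For Cdkn1a these were Tap2 (0.98), Ndrg2 (0.98) and Gas1 (0.97), each itself called lower, though Ndrg2 not with the pool as a block (edgeR adjusted p 0.0525), and Cdkn2a was followed by Ahcyl2 (0.98), Itga3 (0.98) and Tead2 (0.97), of which Itga3 was called higher. Tead2 (0.98) and Ahcyl2 (0.96) were also among the nearest to Cdkn2b, together with Hspa8 (0.97). For Cdkn1c they were Sh3pxd2a (0.97), Stk3 (0.97) and Ksr1 (0.96), for Cdkn2d Sun1 (0.99), Gadd45g (0.97) and Necap1 (0.95), and for Cdkn3 Itsn1 (0.99), Lix1 (0.98) and Phospho2 (0.97). Map2k7, Tnfrsf22 and Hdac1 (all 0.96) were nearest to Cdkn1b, and Osgin2 (0.93), Timm22 (0.90) and Rbck1 (0.90) to Cdkn2c. After removal of the condition means r was 0.70, 0.81 and 0.29 for the 3 genes nearest to Cdkn1a and 0.86 to 0.98 for those of the other members. With 8 libraries and so many candidates these values are descriptions only.

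**Figure D5:**
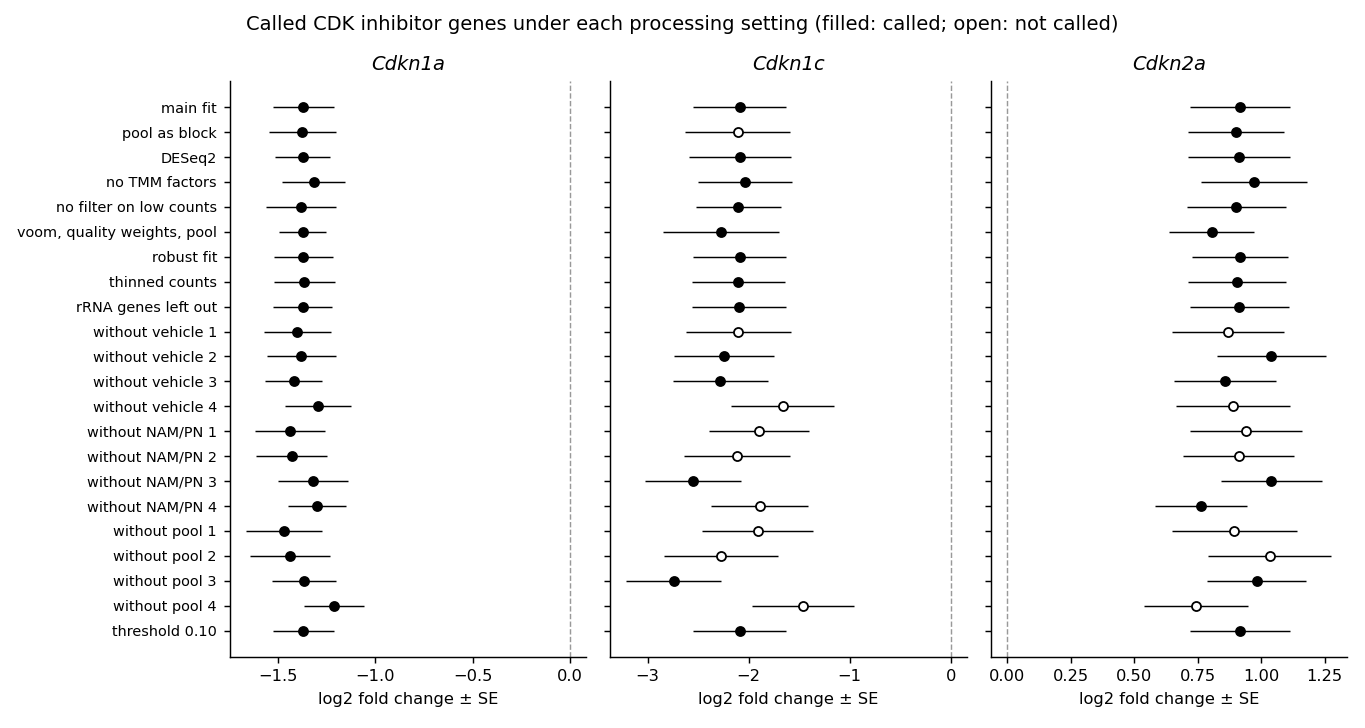
Log2 fold change ± SE (x axis) of Cdkn1a, Cdkn1c and Cdkn2a under the main fit and each alternative setting (rows), with filled circles where the gene was called. Cdkn1a is called in every row, while Cdkn1c and Cdkn2a keep their direction and are called in some rows only.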

How the data were processed

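RNA of MuSCs from aged mice was sequenced in 8 libraries, 4 with vehicle and 4 with NAM/PN. The authors deposited raw read counts per Ensembl gene, without normalization or filtering. According to the labels and the study's methods, libraries were made with the QuantSeq 3′ mRNA-Seq V2 FWD kit, and reads were demultiplexed with Bcl2FastQ, aligned to GRCm38 with RNASTAR and counted with htseq-count. The annotation release, the strand setting and the treatment of reads with several positions are not given in the sources used here, and no molecular identifiers are mentioned, so floors cover counting error only. The SE of an edgeR fold change was derived from the log2 fold change and the F statistic of the fit, and its 95% interval from this SE and a t quantile. Both hold the spread between libraries.

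The members and gene lists were chosen with earlier results of these data known. Groups came from the treatment in the labels. Genes were filtered with filterByExpr (minimum count 10, minimum total 15), normalized by TMM and tested with edgeR 4.0.16 (glmQLFit and glmQLFTest, R 4.3.3) without a block, with Benjamini-Hochberg adjustment over 12060 genes. Log2 CPM used a prior count of 2. Symbols and positions of 55141 identifiers were taken from GENCODE M21, and start regions from RefSeq. No table of proteins was used here. Figures were drawn with matplotlib 3.10.9.

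Library totals were 6472484 to 10163101 counts. No pair of libraries of a condition agreed within sampling noise. Conditions are paired by pool, as the labels give each pool of mice once per condition, although the correlation of their deviations from the condition means was only -0.033 to 0.031. Named genes were the 8 members, the smallest p-value and up to 4 called genes of each list, and the 3 genes most like each member. Further genes, single markers among them, were picked with their values in view. The gene test was tested on simulated data before use. Alternatives were the pool as a replicate block, DESeq2 1.42.0, voom with quality weights and the pool as a correlated block (limma 3.58.1), no filter, no TMM factors, a robust fit, thinned counts, rRNA genes left out, a threshold of 0.10, and the omission of single libraries and of whole pools.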

Additional observations from a re-analysis of the deposited data

Results flagged for a closer look

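Dixon's test at the 95% level was applied to 58 groups of 4 libraries, for 29 quantities given per library, and marked 3 of them, where chance marks about 1 in 20 groups (2.9 here). Cdkn1b was at 29.4 CPM in vehicle replicate 3, under the 69.3 to 76.0 CPM of the other vehicle libraries. This library also had the highest rRNA share of all (21.1%), and its part in the low value was not tested. Rb1 was at 41.9 CPM in vehicle replicate 4, under the 50.4 to 51.0 CPM of the others. The fibro-adipogenic markers summed to 207 CPM in vehicle replicate 3, above the 153 to 158 CPM of the others.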

How the results depend on the processing

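Cdkn1a was called under all 21 alternatives, and 3 members were called under each of the alternatives that kept all libraries except the pool as a replicate block, which left 2 by losing Cdkn1c (-2.11, adjusted p 0.0586). The block changed no other call among the members. When a library or pool was left out, between 1 and 3 members were called, Cdkn1c ranged from -2.74 to -1.46 and Cdkn2a from 0.74 to 1.04. Cdkn1b, at 0.12, turned to -0.027 with voom and ranged from -0.24 to 0.33 over the left-out libraries, with -0.11 without vehicle replicate 3, -0.0079 without NAM/PN replicate 3 and -0.24 without pool 3. Cdkn2c turned to 0.0021 without TMM factors and 0.049 without NAM/PN replicate 2, with a range of -0.15 to 0.049. Neither was called in any fit. The 154 calls over all genes became 388 with DESeq2, 366 without the filter, 232 with voom and 244 at a threshold of 0.10, and 42 to 177 with libraries left out. The 2 called pathway genes became 5 with DESeq2, 5 without the filter, 1 without TMM factors, 1 with thinned counts and 1 to 3 with libraries left out. In the exact test, sign changes within pools (a replicate block) left the differences in log2 CPM at -1.37 for Cdkn1a, -2.08 for Cdkn1c, 0.90 for Cdkn2a, 1.13 for Cdkn2b and -2.03 for Cdkn3, but cannot give a p under 0.125 with 4 pools. Other than by fewer libraries, the causes were not tested. In NAM/PN replicate 4, the deepest library, Cdkn3 rests on 2 counts, so the fold in pool 4 is uncertain.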
